A study of Spirodela polyrhiza with 4 samples.

Results

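Long peaks of H3K9me2, those of at least 5000 bp from start to end, numbered 749 of the 5726 peaks in the broad peak list of line 9509, which is 13.1%. They were selected by the length of the peak alone, on all 20 chromosomes, and the other 4977 peaks, called shorter peaks here, served as the comparison. Line 9509 of *Spirodela polyrhiza*, the greater duckweed, was propagated clonally as sterile plants in a salt medium. Its chromatin came from fresh plantlets, so the peaks average over the cell types of these plantlets. The paper states that flower tissue was not sampled. The plants carried no transgene, mutation or treatment that the labels name. The samples also include an input control of line 9509 and the DNA methylation of lines 7498 and 9509, which were not analysed here. The paper's supplement lists further libraries, among them H3K9me2 ChIP-seq of line 7498 and small RNA, that were not used here. With 1 H3K9me2 library of line 9509 there is no error between plants. Since length, position and enrichment all come from the same peak calling, long and shorter peaks are described side by side without a test.

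H3K9me2 is the dimethylated form of lysine 9 on histone H3. In plants it is a mark of silenced chromatin over transposons and other repeats, and it is dense around centromeres and scattered along chromosome arms. In *A. thaliana* the histone methyltransferases that place it bind methylated DNA, and the DNA methyltransferase CMT3 binds the mark and methylates nearby CHG sites, so that each maintains the other. The retrotransposons with long terminal repeats on which the mark is often found are commonly several kilobases long.

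Every peak in the list has a position, a fold enrichment and a −log10 q. Fold enrichment is the ratio of the read pileup to the background that MACS2 estimated, and −log10 q is the strength of evidence for it. In broad mode MACS2 gives both as means over the positions of a peak, and every q below is read from such a mean. The lowest −log10 q of the list was 1.03. The smallest gap between peaks was 285 bp, and 0 peaks touched or overlapped. The list carries no read counts, so the depth behind a single peak is unknown and intervals below cover only the counting of peaks. The intervals treat peaks and gaps as independent, which neighboring ones are not. Coordinates are positions on the line 9509 genome as the list gives them. The build was named neither in the labels nor in the methods read here. No genome sequence or annotation was used here, so no peak was assigned to a gene or a retrotransposon.

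Long peaks were few but held nearly as much of the H3K9me2 sequence as all shorter peaks together. They covered 6.26 Mb of the 13.6 Mb under peaks, or 46.2%, and 4.54% of the 138 Mb between the first base and the last peak of the chromosomes. Shorter peaks covered 5.29% of that sequence. The median long peak was 7229 bp (quartiles 5881 and 9639 bp), and the median shorter peak was 988 bp (quartiles 521 and 2083 bp). Long peaks became rarer with length. There were 404 of 5 to 7.5 kb, 178 of 7.5 to 10 kb, 128 of 10 to 15 kb, 27 of 15 to 20 kb and 12 of 20 kb or more. The class of 5 to 7.5 kb held 53.9% of the long peaks and 39.2% of their summed length, whereas the 167 peaks of at least 10 kb held 36.5% of it. The 75 longest, all of at least 12849 bp, held 19.9%.

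**Figure D1:**
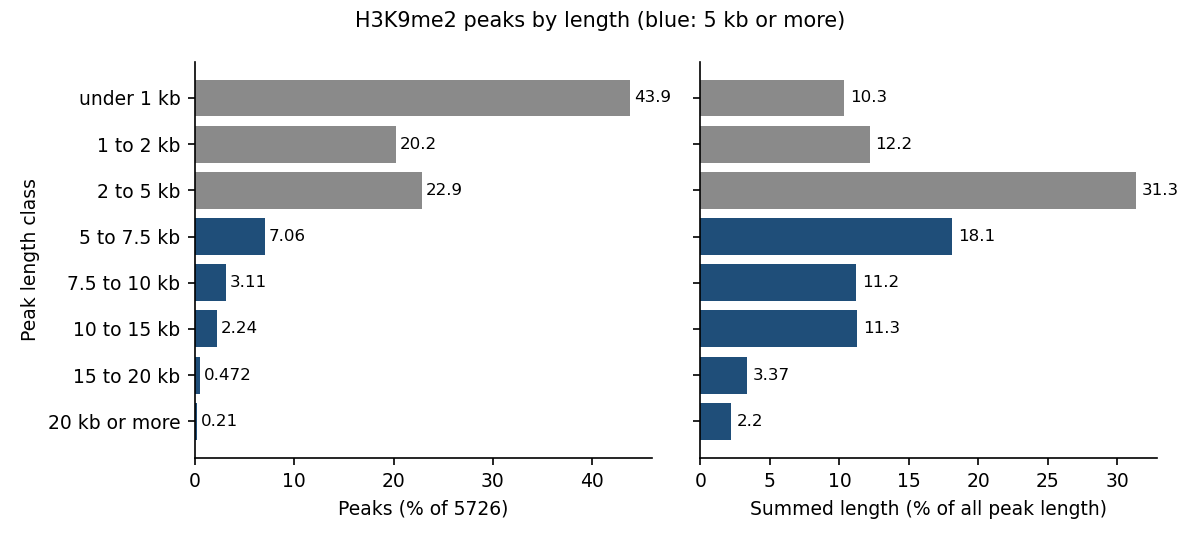
Share of all 5726 H3K9me2 peaks (left, percent) and of their summed length (right, percent) in each length class, with long peaks in blue and shorter peaks in gray. The 5 long classes hold 13.1% of the peaks and 46.2% of the length, while peaks under 1 kb hold 43.9% and 10.3%.

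The length minimum fell in a continuous range of lengths, with 142 peaks of 4500 to 5000 bp below it and 114 peaks of 5000 to 5500 bp above it. The 3 shortest long peaks measured 5009 bp (chromosome 7, 5282011 to 5287019), 5010 bp (chromosome 20, 3982430 to 3987439) and 5024 bp (chromosome 13, 5887855 to 5892878). The 3 longest peaks below the minimum measured 4999 bp (chromosome 8, 4750213 to 4755211, and chromosome 11, 3542587 to 3547585) and 4992 bp (chromosome 14, 3412416 to 3417407). Their fold enrichments were 3.46, 2.03 and 2.68 inside and 4.41, 3.45 and 3.54 outside. The median fold enrichment was 2.90 at 5000 to 5500 bp and 2.82 at 4500 to 5000 bp, so no step in enrichment marked the minimum.

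The longest peak of the list lay on chromosome 10 from 3416240 to 3461066 and measured 44827 bp at 5.47-fold. It had a neighbor at 1360 bp of 1902 bp and, on the other side, another at 1741 bp of 4907 bp. The next was the last peak of chromosome 4, from 9503193 to 9533977, which measured 30785 bp at 6.47-fold. It was followed by the peak of 29480 bp on chromosome 3, from 6540875 to 6570354, at 4.34-fold. The first of these stood well apart in length from the other two, which were close to each other.
The fourth, on chromosome 8 from 5243386 to 5267879, was 24494 bp long and 3.57-fold enriched. The fifth was on chromosome 11 from 3896652 to 3920034, with 23383 bp and 3.17-fold enrichment. On chromosome 12 a peak of 21928 bp ran from 1809107 to 1831034 at 3.30-fold. The peaks on chromosomes 11 and 12 were near the median long peak in enrichment, 3.10, and that on chromosome 8 was at the upper quartile, 3.57.
The remaining 4 of the 10 longest lay on chromosome 17 (21545 bp from 1603276, 3.83-fold), chromosome 9 (20822 bp from 4174611, 4.82-fold), chromosome 10 (20359 bp from 4552, 5.66-fold) and chromosome 6 (20355 bp from 4568412, 3.04-fold). The one on chromosome 10 is the first peak of that chromosome. The 12 peaks of at least 20 kb were spread over 9 chromosomes, and the 27 of 15 to 20 kb over 13.

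Every chromosome had at least 4 peaks of 10 kb or more. The longest peak of a chromosome had a median length of 19729 bp over the 20 chromosomes (SD 7368, n = 20 chromosomes). Chromosomes 20 and 18 had the shortest of these, 12210 bp from 3870178 at 3.35-fold and 13036 bp from 2932409 at 4.26-fold. On chromosomes 15 and 19 the longest peak was the first peak of the chromosome, 14095 bp from 4396 at 5.22-fold and 16160 bp from 3614 at 4.84-fold. On chromosome 1 it was the second peak, of 17497 bp from 13883, at 5.28-fold and 489 bp from the first.
The longest peaks of chromosomes 2, 14 and 7 were close to 20 kb, with 19828 bp from 7224279 (3.47-fold), 19630 bp from 4316762 (4.34-fold) and 18595 bp from 5592530 (4.10-fold). Those of chromosomes 13, 16 and 5 measured 17797 bp from 6025351 (3.64-fold), 17365 bp from 4381078 (3.79-fold) and 16541 bp from 5083860 (3.29-fold). The longest peaks of the chromosomes therefore ranged from 3.04-fold to 6.47-fold, and all but that of chromosome 6 were above 3.10, the median of long peaks.

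Long peaks were the more enriched peaks of the list, and among themselves length and enrichment were less closely related than among shorter peaks. Their median fold enrichment was 3.10 (quartiles 2.76 and 3.57, range 1.91 to 6.70), against 1.99 for shorter peaks (quartiles 1.79 and 2.39, range 1.44 to 5.89). All 749 had a q under 0.01, against 75.7% of all peaks, and 717 (95.7%) had a q under 1e-05, against 36.0% of all peaks. At least 2-fold enrichment was reached by 748, or 99.9%, where 55.7% of all peaks reached it. At least 3-fold enrichment was reached by 433 (57.8%), against 14.8% of all peaks, and at least 4-fold by 98 (13.1%), against 2.44% of all peaks. Enrichment and q come from the same peak calling as the length, so these shares describe the list and are no independent support for the choice by length.

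Within the list, the rank correlation of length and fold enrichment was 0.69 over the 4977 shorter peaks and 0.28 over the 749 long peaks. All points share 1 library and 1 background estimate, and the values are given as a description. The choice by length also leaves long peaks a narrower relative range of lengths. Their quartiles were 5881 and 9639 bp, against 521 and 2083 bp for shorter peaks. A narrower range can lower a rank correlation, and its part in the difference was not tested. The class medians were 1.81 under 1 kb, 2.09 at 1 to 2 kb, 2.58 at 2 to 5 kb, 2.98 at 5 to 7.5 kb, 3.25 at 7.5 to 10 kb and 3.19 at 10 to 15 kb. The 27 peaks of 15 to 20 kb had a median of 3.79 and the 12 of 20 kb or more one of 3.70, so the medians also rose across the long classes, though not at each step. A long peak was seldom weak, since 1 of 749 lay below the median of shorter peaks. Conversely 347 shorter peaks (6.97%) lay above the median of long peaks, and the strongest of them reached 5.89 over 3858 bp. Of the 100 most enriched peaks of the list 78 were long, and of the 10 most enriched 9 were.

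**Figure D2:**
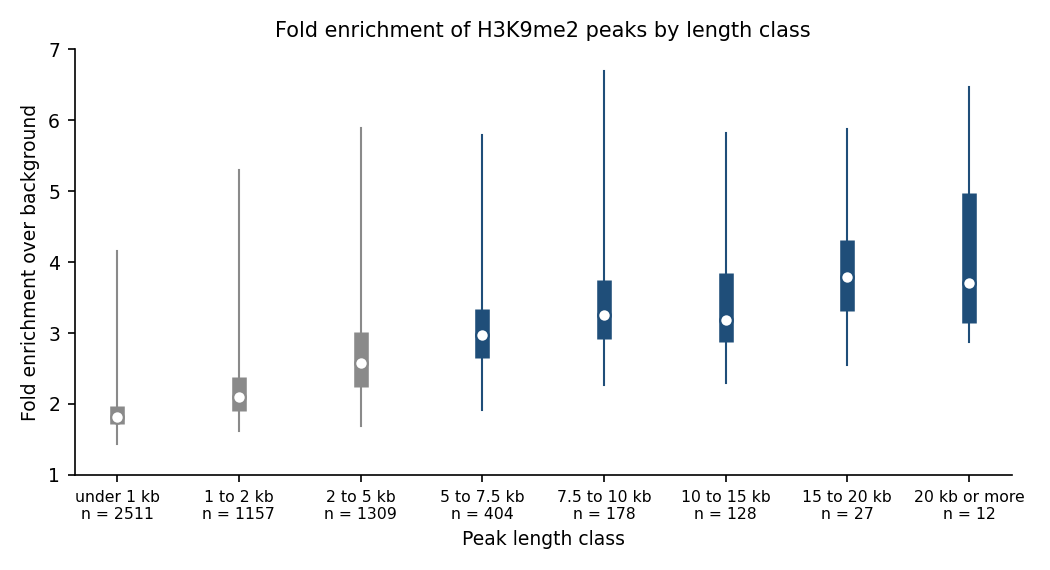
Fold enrichment over the MACS2 background (y axis, ratio) of peaks in 8 length classes, with long classes in blue and shorter ones in gray. Thin lines give the range, thick bars the quartiles and circles the median. Medians rise from 1.81 to 2.98 up to the class of 5 to 7.5 kb and lie between 3.19 and 3.79 above 7.5 kb.

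The 5 long peaks with the highest fold enrichment were of very different lengths. The first peak of chromosome 1, from 4669 to 13393, reached 6.70 over 8725 bp. The last peaks of chromosomes 4 and 18 reached 6.47 over 30785 bp and, from 5304606 to 5312448, 6.24 over 7843 bp. The first peak of chromosome 17, from 2603 to 19550, reached 5.87 over 16948 bp. The fifth lay inside a chromosome, on chromosome 6 from 1616601 to 1627080, and reached 5.82 over 10480 bp.
First and last peaks of chromosomes included 21 long and 19 shorter ones, while long peaks were 13.1% of the whole list. The 21 long ones had a median fold enrichment of 4.75 and a median length of 10288 bp, against 3.09 and 7177 bp for the other long peaks. Shorter first and last peaks differed in the same direction, with medians of 2.16 and 1698 bp, against 1.99 and 985 bp for other shorter peaks. Within 100 kb of the start or the last peak of a chromosome lay 44 long peaks (5.87%) and 156 shorter peaks (3.13%), in zones that made up 2.90% of the sequence. Each last peak lay in such a zone by construction, because its end was taken as the end of the chromosome.

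The 5 weakest long peaks were 1.91-fold to 2.03-fold enriched and did not form a uniform set. The weakest, of 5954 bp on chromosome 10 from 4295885 to 4301838, had a −log10 q of 2.53. Those on chromosome 9 from 7097271 to 7102807 (2.02-fold) and on chromosome 16 from 3557776 to 3564596 (2.03-fold) had a −log10 q of 3.08 and 3.14. The other two, on chromosome 5 from 4419731 to 4426909 (2.00-fold) and on chromosome 20 from 3982430 to 3987439 (2.03-fold), had a −log10 q of 12.6 and 13.6. Peaks of such a fold enrichment usually had far less, a median −log10 q of 2.93 and 3.09 among the 51 peaks nearest in fold enrichment.
At a single position, a higher −log10 q at the same ratio goes with a higher pileup and a higher background. The listed −log10 q is a mean over the peak, and how it varied within a peak was not tested. The value was at least 2 times that of peaks of like fold enrichment in 4 of 749 long peaks (0.534%), beside 0.646% of all peaks, a comparison added after the values were seen. Apart from the pair above, these were a peak of 5116 bp on chromosome 5 from 4434133 to 4439248 (2.40-fold, −log10 q 20.1) and the peak of 20047 bp on chromosome 11 from 3235569 to 3255615 (3.06-fold, −log10 q 22.1). Both peaks on chromosome 5 belong to the same run of 5 long peaks. The part of the background estimate in these values was not tested.

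Long peaks were present on all 20 chromosomes, at a median of 5.36 per Mb (SD 1.09, n = 20 chromosomes). Chromosome 10 stood highest with 65 long peaks, 8.17 per Mb, and 7.04% of its sequence under long peaks. Chromosomes 16 and 15 followed with 6.75 and 6.58 per Mb. The lowest densities were on chromosomes 4, 2 and 18 with 3.78, 3.79 and 3.95 per Mb. Chromosome 4 also had the lowest share of its sequence under long peaks, 3.13%.
The share of peak length in long peaks varied less, with a mean of 45.4% ± 5.41 (SD, n = 20 chromosomes). It was highest on chromosomes 10 and 1, with 53.0% on each, and lowest on chromosomes 18 and 17, with 35.5% and 36.5%. Chromosomes 1 and 10 reached this share in different ways. Chromosome 1, the longest, had 58 long peaks at 5.02 per Mb with a median length of 7790 bp, whereas chromosome 10 had 8.17 per Mb with a median of 7166 bp. Of the 276 peaks of chromosome 18, 21 or 7.61% were long, the lowest percent of any chromosome. Chromosome 15 combined a high density of long peaks with short ones, a median of 6186 bp, and a share of 38.6%. Chromosome 14 had the highest median length, 9717 bp, over 27 long peaks.
On each of the 20 chromosomes the median fold enrichment of long peaks was above that of shorter peaks, by 0.90 to 1.37 (median 1.11). Length went with fold enrichment over the whole list (rank correlation 0.77). The chromosomes share 1 library and 1 peak calling, so they are not independent repeats of this difference. The medians of long peaks lay between 2.88 on chromosome 18 and 3.33 on chromosome 14.

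**Figure D3:**
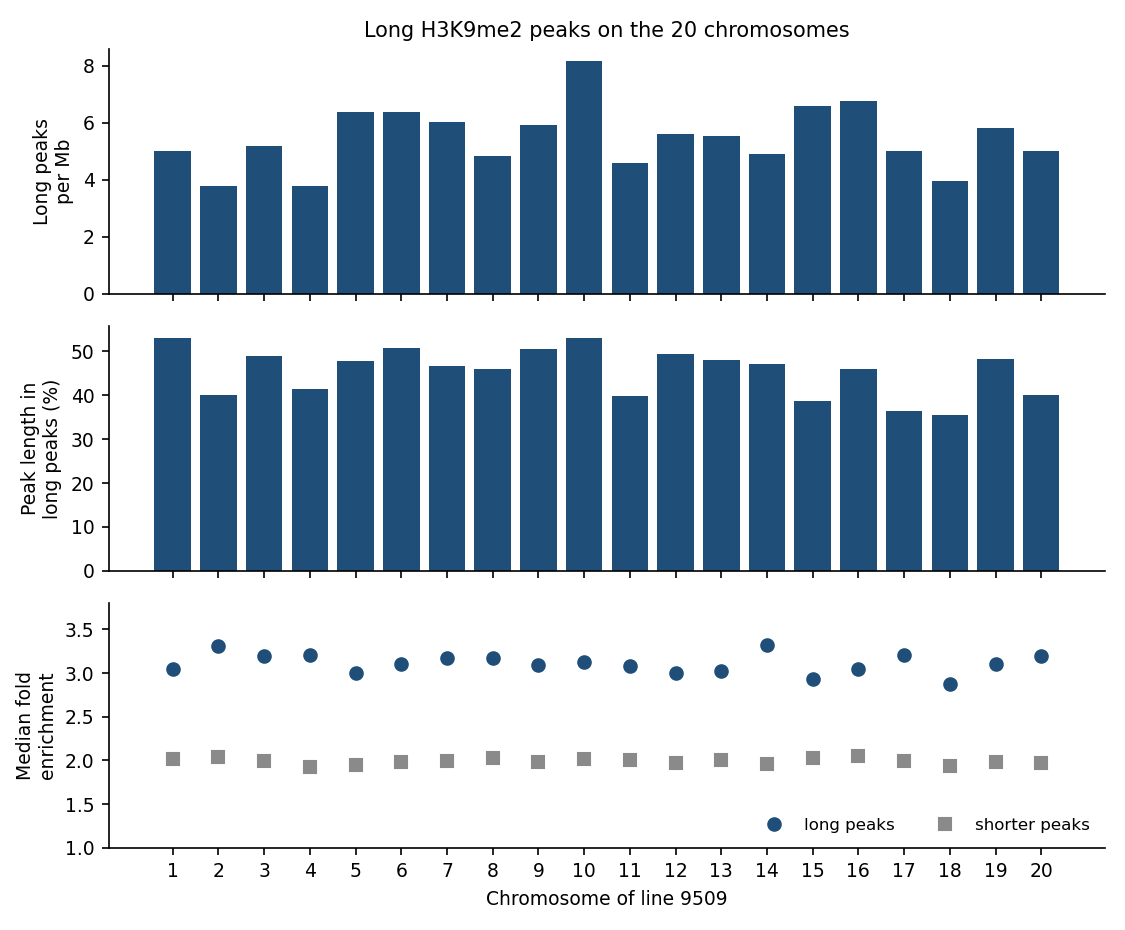
Long H3K9me2 peaks on the 20 chromosomes of line 9509: number per Mb (top), percent of the chromosome's peak length that lies in long peaks (middle), and median fold enrichment of long (blue circles) and shorter peaks (gray squares, bottom). Chromosome 10 has the highest density, 8.17 per Mb, and on every chromosome the median of long peaks is above that of shorter peaks. All 20 chromosomes come from the same library and peak calling.

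Along the chromosomes, long peaks were distributed much like shorter ones. When each chromosome was divided into 10 equal parts, the sixth part held the most long peaks, 14.3%, and the second the fewest, 4.54%. For shorter peaks these parts held 13.2% and 6.13%. The ninth part differed most, with 8.54% of long and 11.1% of shorter peaks. Within 100 kb of an end, as given above, lay 5.87% of long and 3.13% of shorter peaks. Pooled parts do not show where the dense stretch of a single chromosome lies. Long peaks made up between 10.0% and 14.0% of the peaks of each part, and their median fold enrichment ran from 3.41 in the first part to 2.98 in the seventh.
In 265 complete windows of 500 kb, the median number of long peaks was 2, and 45 windows (17.0%) had none. Another 175 windows had 1 to 4. At the other end, 11 windows on 10 chromosomes had at least 10 each and together held 141 of the 704 long peaks in complete windows. The fullest was on chromosome 6 from 4500001 to 5000000, with 16 long peaks that covered 26.3% of it and 27 shorter peaks. The next was on chromosome 10 from 3500001 to 4000000, with 15 long and 34 shorter peaks. Chromosome 10 held another such window beside it, from 3000001 to 3500000, where 13 long peaks covered 28.7%.
The first 500 kb of chromosome 8 had 14 long peaks among 76 shorter ones. Windows rich in long peaks tended to be rich in shorter ones, with a rank correlation of 0.59 over the 265 windows, a description in which neighboring windows are not independent. The incomplete last window of chromosome 13, from 6000001 to 6315042, held 14 of the 35 long peaks on that chromosome. In the fullest window of each chromosome lay a median of 26.7% of its long peaks, with the lowest share, 16.7%, on chromosome 4.

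Neighboring long peaks were a median of 71.2 kb apart (95% order-statistic interval 58.9 to 86.9 kb, 729 gaps), but the spacing was very uneven. The mean gap was 171 kb with an SD of 261 kb, and the quartiles were 13.3 and 224 kb. Neighboring peaks of any length were a median of 2.35 kb and a mean of 21.6 kb apart. Uneven spacing was not particular to long peaks. The SD divided by the mean was 1.53 for gaps between long peaks and 2.23 for gaps between all peaks. Of the gaps between long peaks, 49 (6.72%) were at most 1 kb, 64 were 1 to 5 kb and 103 were 5 to 20 kb. At the far end 132 gaps were 200 to 500 kb and 66 (9.05%) were longer. A median of 4 shorter peaks lay in a gap, and in 107 of the 729 gaps (14.7%) there was none.

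**Figure D4:**
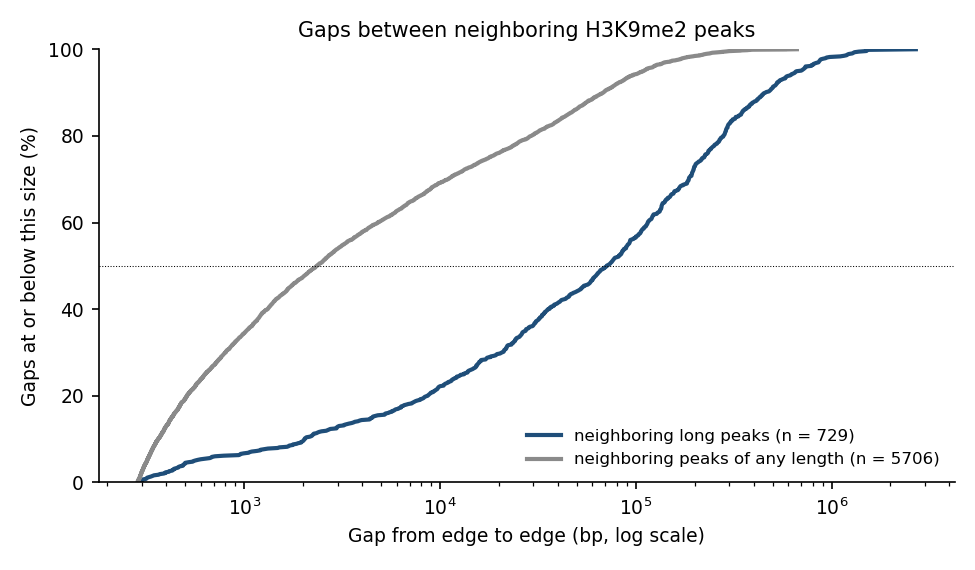
Cumulative percent of gaps (y axis) at or below each size (x axis, bp, log scale) between neighboring long peaks (blue, 729 gaps) and between neighboring peaks of any length (gray, 5706 gaps). The median is 71.2 kb for long peaks and 2.35 kb for all peaks, and the curve of long peaks climbs slowly from 290 bp to 2697 kb.

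The 3 smallest gaps were each 290 bp, between pairs of long peaks on chromosome 9 (4760853 to 4766750 and 4767041 to 4773510), chromosome 15 (4401808 to 4407116 and 4407407 to 4412894) and chromosome 17 (1354535 to 1360524 and 1360815 to 1368168). They were barely above the smallest gap of the whole list.
The largest gap, 2697 kb, ran on chromosome 2 from 1796963 to 4493627 and held 17 shorter peaks. Those of chromosome 6, from 6763468 to 8311064, and of chromosome 3, from 2490191 to 4002719, measured 1548 and 1513 kb and held 23 and 20 shorter peaks. These largest stretches without a long peak were thus not empty of H3K9me2 peaks. Some smaller ones were, such as a gap of 285046 bp on chromosome 2. On every chromosome the largest gap was at least 597 kb, with a median of 1069 kb (SD 470, n = 20 chromosomes).

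Where long peaks came close together they formed runs. With neighbors chained across gaps of at most 20 kb, 341 long peaks (45.5%) lay in 125 runs of at least 2, and 408 stood alone. No such chaining is given for shorter peaks, so these counts do not show runs to be particular to long peaks. There were 51 runs of 3 or more, with at least 1 on each of the 20 chromosomes, and they held 193 long peaks (25.8%) over a median span of 47.5 kb.
The largest run held 10 long peaks on chromosome 6 from 4763878 to 4880581. Its long peaks covered 64.3% of 116704 bp and were 2.57-fold to 3.43-fold enriched. The second, of 7 long peaks, lay on chromosome 10 from 3212459 to 3321701, with 56.8% covered and 2.12-fold to 3.91-fold enrichment. The third, of 6, lay on chromosome 3 from 6331560 to 6407645, with 68.8% covered.
Runs of 5 lay on chromosome 15 (3996874 to 4061826), chromosome 13 (6226507 to 6283844), chromosome 5 (4419731 to 4469001) and chromosome 10 (3534320 to 3581973). That of chromosome 13 was the most densely covered of these, with 80.9%. A run of 4 on chromosome 11 from 3095410 to 3137224 reached 89.6%, and its longest peak measured 15207 bp.
Long peaks in runs and alone were close in size and strength. Medians were 7312 and 7166 bp for length and 3.09 and 3.11 for fold enrichment. The rank correlation between a long peak and the next on its chromosome was 0.03 for length and 0.06 for fold enrichment over 729 pairs, again a description.

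The flanks of long peaks held many other peaks, but the share of long peaks with a close neighbor was no higher than that of shorter peaks. Another peak lay within 5 kb of 594 long peaks, which is 79.3% (95% Wilson interval 76.3 to 82.1%), against 82.4% of shorter peaks (81.3 to 83.4%) and 82.0% of all peaks. The nearest peak was a median of 748 bp away for long and 804 bp for shorter peaks. A neighbor within 5 kb on both sides was found for 299 long peaks (39.9%), on 1 side for 295 (39.4%) and on neither for 155 (20.7%). For shorter peaks these shares were 38.2%, 44.2% and 17.6%.
Many of the close neighbors were weak peaks. Among peaks of q under 1e-05 alone, 57.9% of long peaks had such a neighbor within 5 kb (54.2 to 61.4%) and 55.5% of shorter peaks (52.9 to 58.2%). For peaks of 2 to 5 kb in that stricter list it was 56.4%. In the full list chromosome 10 was highest, with 95.4% of its 65 long peaks within 5 kb of another peak. Chromosome 14 was lowest with 66.7% of 27. Chromosome 10 also held the most peaks of any length, 410, against 241 on chromosome 14. The share for shorter peaks was not computed by chromosome, so these values do not show a trait of long peaks. After a long peak the next was long in 107 of 738 cases, 14.5% (12.1 to 17.2%), and after a shorter peak in 12.7% (11.8 to 13.7%).

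Over wider distances the flanks of long peaks were more covered than the sequence as a whole, of which 9.83% lay under peaks. Other peaks covered 24.7% of the sequence within 2 kb of a long peak, 33.7% at 2 to 5 kb, 29.3% at 5 to 10 kb, 25.1% at 10 to 20 kb and 20.9% at 20 to 50 kb. The first bin includes the 285 bp next to each peak in which the list holds no other peak. The flanks of peaks of 2 to 5 kb were covered to a like extent, with 32.5% at 2 to 5 kb and 21.3% at 20 to 50 kb. Those of peaks under 1 kb were less covered, with 26.8% and 17.0%.
Of the 33.7% at 2 to 5 kb, other long peaks made up 13.1 percentage points and shorter peaks 20.6. At 5 to 10 kb the parts were 14.9 and 14.4. For the 167 peaks of at least 10 kb the flank was 36.5% covered at 2 to 5 kb and 33.5% at 5 to 10 kb. Flanks of neighboring peaks overlap, so a stretch may count for several peaks.

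**Figure D5:**
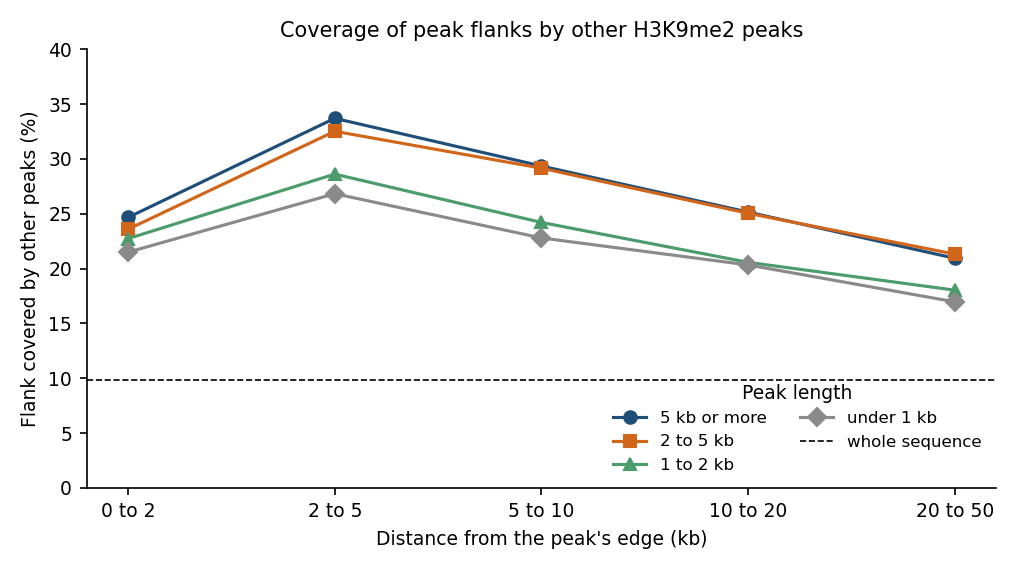
Percent of the flanking sequence covered by other H3K9me2 peaks (y axis) by distance from the peak's edge (x axis, kb, both sides pooled) for long peaks and 3 shorter classes. The dashed line is the 9.83% of the whole sequence under peaks. The flanks of long peaks peak at 33.7% at 2 to 5 kb and are still 20.9% covered at 20 to 50 kb, close to those of peaks of 2 to 5 kb.

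The shorter peaks that flanked long ones were slightly longer and stronger than those elsewhere. Within 5 kb of a long peak lay 1012 shorter peaks (20.3%), with a median length of 1143 bp and a median fold enrichment of 2.06, and 34.3% had a q under 1e-05. The 3965 farther away had medians of 952 bp and 1.98, and 25.2% had such a q. Of the shorter peaks, 2125 (42.7%) were over 50 kb from any long peak, with medians of 907 bp and 1.95, and 21.3% of these had a q under 1e-05.
At the other extreme, 71 long peaks (9.48%) had no other peak within 20 kb, against 395 shorter peaks (7.94%). The most isolated was the first peak of chromosome 3, from 2228 to 11381, whose neighbor was 221993 bp away. It was 9154 bp long and 4.75-fold enriched. On chromosome 2, the peaks from 1790619 to 1796962 and from 614867 to 621428 were 197846 and 164002 bp from the nearest peak, with fold enrichments of 2.11 and 4.25. On chromosome 7 a peak of 12695 bp from 2426594 was 170858 bp from the nearest, at 3.85-fold, and on chromosome 3 a peak of 11169 bp from 371615 was 137576 bp from it, at 3.18-fold. Long peaks thus occurred far from any other called region at both low and high enrichment.

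The length of a peak depends on where the caller joins regions. A neighbor within 1 kb was found for 424 long peaks (56.6%) and for 56.1% of shorter peaks. Joined across gaps of at most 1000 bp, the list held 3756 regions, of which 946 were at least 5 kb long. Of these, 274 contained no long peak and arose from shorter peaks alone, and 61 regions contained at least 2 long peaks each. The longest joined region measured 51387 bp. After joining, 66.1% of the joined length lay in regions of at least 5 kb, in place of 46.2%.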

How the data were processed

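H3K9me2 ChIP-seq of line 9509 gave the single list used here. The authors trimmed reads with Trimmomatic, mapped them with bowtie1 to a single place, which lowers signal over near-identical repeats, dropped clonal duplicates (Picard) and ran MACS2 in its broad mode. The deposited fold enrichment is a ratio to background, averaged over the peak, and the methods leave unsaid whether the input served as that background. Deposited −log10 p and −log10 q are MACS2 values, the p-value not used further. The deposited score repeats −log10 q, multiplied by 10 and truncated, and was left out. Deposited starts, counted from 0, are printed from 1. Read depth is unknown from the list.

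Gaps run from edge to edge on a chromosome, whose length was the end of its last peak, a lower limit. Flank coverage pooled both sides. Shares have Wilson intervals and medians order-statistic intervals (95%), for counting error only. They take peaks and gaps as independent, which neighboring ones are not, and serve as yardsticks and not as tests. Functions were tested on simulated lists. Python 3.11.15, NumPy 2.4.6, pandas 2.3.3, SciPy 1.17.1 and Matplotlib 3.10.9 were used. Peaks were named by a rule: the 10 longest, the longest of each chromosome, the 5 highest, 5 lowest and 5 most isolated, those just inside and outside the minimum, the largest runs, and the 3 smallest and largest gaps. Other regions named were chosen after their values were seen. Members, rule and lists were chosen with earlier results of these data known.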

Additional observations from a re-analysis of the deposited data

How the results depend on the processing

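The measures were recomputed under alternative settings, and of 35 values 17 stayed within their tolerance (1.5 times for the number, 1 SD over chromosomes for share of length and density, 95% intervals for the others) and 18 moved. The number of long peaks stayed between 543 and 1065. With a minimum of 4000 bp, long peaks held 56.6% of the peak length, lay a median of 41.5 kb apart, had a median fold enrichment of 3.04 and a median density of 7.72 per Mb. With 6000 bp these were 37.8%, 97.8 kb, 3.19 and 3.69 per Mb. With q under 1e-05, the share of length was 62.4% and that of long peaks with a neighbor within 5 kb 57.9%. With at least 2-fold enrichment these were 53.9% and 67.0%. With joined peaks they were 66.1% and 59.1%, with a median fold enrichment of 2.89 and 6.79 per Mb. A neighbor lay within 2 kb of 70.6% and within 10 kb of 85.6%. Stricter lists hold fewer shorter peaks by construction. The same settings were applied to shorter peaks, a comparison added after seeing the data, and gave 55.5%, 68.0% and 59.9% with a neighbor within 5 kb for q under 1e-05, at least 2-fold enrichment and joined peaks. With 1 library, no error between plants can be given, and without read counts no interval for a single peak.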
